A study of Homo sapiens with 18 samples.

Results

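The comparison described here set Cal27 cells kept with 2-deoxy-D-glucose (2-DG) against the same cells in high-glucose medium, both without added CGRP, and covers 6 of the 18 libraries of the series. Cal27 is an established human tongue squamous carcinoma line. The 2-DG group (3 libraries) had 2-DG at 5 mM added to DMEM rich in glucose, with control medium, and the high-glucose group (3 libraries) had that DMEM without 2-DG and with control medium, each for 24 h. Glucose was therefore present in both groups, and the agent that differs is 2-DG. The other 12 libraries come from the same line, and 9 of them are used below for contrast: 3 with 5 mM 2-DG and 10 nM rhCGRP, 3 with high-glucose DMEM and 10 nM rhCGRP, and 3 in glucose-deprived medium with control medium. The members were the libraries whose labels name 2-DG or high glucose together with the control medium, numbered 1 to 3 and described in the labels as independent biological repetitions. All libraries come from 1 line. The sample titles read "capTG" in the groups with control medium and "TG" in the groups with rhCGRP. The growth protocol speaks of "CM" while the design text speaks of added rhCGRP. What else the control medium held is thus not given in the sources used here.

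2-DG is a glucose analogue that cells take up through glucose transporters and that hexokinase phosphorylates. The product is not taken further by glycolysis and slows the pathway. 2-DG also resembles mannose and enters the assembly of the lipid-linked sugar chains used for N-glycosylation, so that proteins folding in the endoplasmic reticulum (ER) can lack their glycans. Cells meet unfolded protein in the ER through the sensors IRE1 (gene ERN1), PERK (EIF2AK3) and ATF6, which raise ER chaperones, folding enzymes, transport and degradation factors through XBP1, ATF6 and ATF4. Glucose 6-phosphate and its analogues, 2-DG 6-phosphate included, are also read by the MondoA and MLX transcription factor pair, which drives TXNIP and ARRDC4.

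The data are 1 RNA-seq library per culture with 32182840, 30070592 and 29988501 counts in the 2-DG libraries, against 28626418, 30425641 and 28493690 counts in the high-glucose libraries. Levels are given as CPM, the count relative to the library total after trimmed-mean scaling. CPM is not corrected for transcript length, so changes are read between libraries. Statements that a gene or a marker sum is high or low are only rough. The epithelial identity of the line was visible in its keratin and adhesion genes, of which KRT5, KRT14, KRT6A, EPCAM, CDH1 and TP63 were all among the genes tested. Their summed level (6 of 6 tested) was 3490 to 3800 CPM in the 2-DG libraries, against 3680 to 3720 CPM in the high-glucose libraries. Markers of other cells were low: the 6 fibroblast markers summed to 18.1 to 19.7 CPM in the 2-DG libraries, against 25.4 to 27 CPM in the high-glucose libraries, the 5 leukocyte markers to 1.85 to 2.14 CPM, against 2.19 to 2.37 CPM, and the 4 endothelial markers to 21.3 to 25.1 CPM, against 24.3 to 25.2 CPM. The 6 neuron markers summed to 15.7 to 17.4 CPM in the 2-DG libraries, against 13.1 to 13.6 CPM in the high-glucose libraries. Of the lists 4 fibroblast, 2 leukocyte, 2 endothelial, 5 neuron and 1 Schwann cell gene had enough counts to be tested. KDR, an endothelial receptor gene, had no count in the 6 libraries. CDH5, of the same list, made up most of the endothelial sum. It had 23.7, 20.1 and 23.2 CPM in the 2-DG libraries, against 23.1, 23.1 and 22.3 CPM in the high-glucose libraries. Of these markers TP63 and COL1A1 fell and the neurofilament gene NEFM rose (adjusted p = 0.023, passing in 9 of 16 alternatives), and no other marker passed the test; the part of these cells in the results below was not tested.

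The library 2-DG control 2 stood apart from its group mates. On the first principal component of the 6 libraries, which holds 40% of their variance, it lay at 42.1, its mates at 5.25 and 10.3, and the high-glucose libraries between -20.2 and -18.2. Counts of this library differed from those of its mates by 45.9 and 35.9 chi-square units per degree of freedom, against 2.06 between the mates. Short transcripts were high and long transcripts low in it. Genes with a mean log2 CPM of at least 3 over all 18 libraries were put in 8 bins of equal size by transcript length. In the bin of the shortest (median 1299 bases) its median deviation from the group mean was 0.23 on the log2 scale, and in the bin of the longest (median 8992 bases) it was -0.26, whereas the high-glucose libraries stayed near 0 in every bin. Each count below was therefore also computed without this library and with an offset for transcript length, and the values are given where they change a reading. The part of RNA quality or library preparation in this was not tested.

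**Figure D1:**
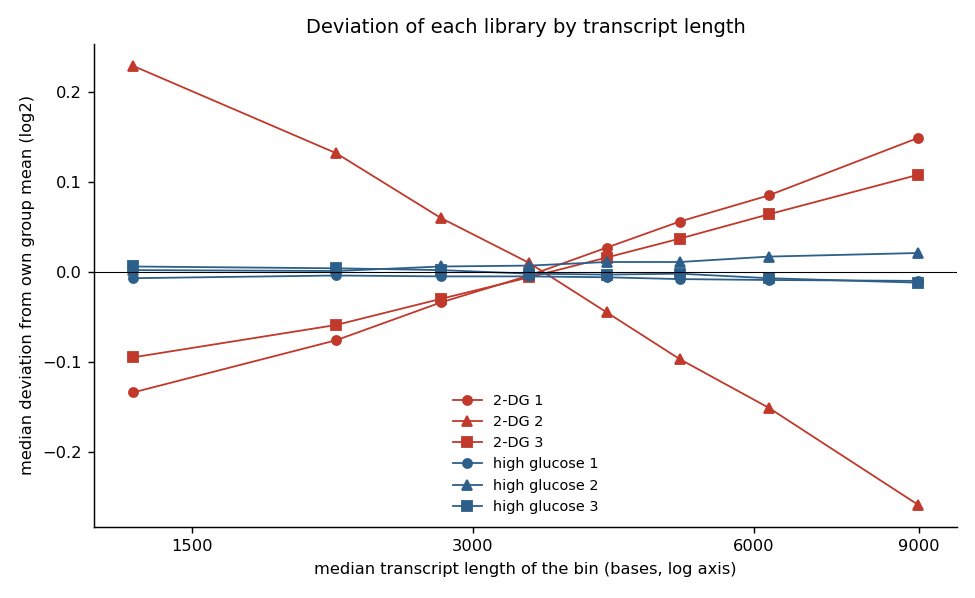
Median deviation of each library from the mean of its own group (log2, y axis) in 8 bins of transcript length (median length in bases, log x axis), 2-DG libraries in red and high-glucose libraries in blue. The library 2-DG 2 falls from 0.23 at short to -0.26 at long transcripts, its mates slope the other way around the shared mean, and the 3 high-glucose libraries stay near 0.

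Of 18159 genes with enough counts, 1451 rose and 1062 fell with 2-DG (edgeR quasi-likelihood test, Benjamini-Hochberg adjusted p under 0.05), which is 7.99% and 5.85% of the genes tested. These shares are the background for all counts of list members below, and the median log2 fold change of all genes was 0.01. Most changes were small: the risers had a median log2 fold change of 0.345 and the fallers of -0.455, and 55 genes rose and 121 fell at least 2-fold. Among the calls with a mean log2 CPM of at least 1 over all 18 libraries, 23 rose and 10 fell at least 2-fold. Most of the falls of that size were thus in genes with a low mean over those libraries. The direction split depends on the scaling: with scaling by total counts 38.1% of the calls were rises, against 57.7% with trimmed-mean scaling. That change turned the sign of the median of 11 of the 46 lists below, all of them with a median within 0.058 of 0. Without 2-DG control 2 2078 genes were called, 56.8% of them rises, and 70.7% of the 2513 calls remained. Of those 2513 calls 2501 had no overlap between the 2-DG and high-glucose libraries, so lack of overlap adds little to a call. Leaving out high-glucose control 1 or 3 gave 1631 and 1593 calls, and leaving out both libraries that stand apart (2-DG control 2 and a deprived CGRP library, which share the estimate of spread) gave 5997. In bulk RNA a smaller number of cells in a state and less RNA per cell cannot be told apart. Of 13390 protein-coding genes 1342 rose and 801 fell (10.0% and 5.98%), whereas of 3271 long non-coding genes 76 rose and 212 fell (2.32% and 6.48%). List members and interaction genes named below beyond the rule for named genes were chosen after their values were seen.

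ER chaperones had the highest median of the 46 gene lists examined, and none of them fell. Of the 22 genes of the list, all tested, 17 rose, with a median log2 fold change of 0.78, against 0.01 over all genes. The count was 17 in every alternative computed, and the median was 0.77 without 2-DG control 2. HSPA5 (ENSG00000044574), which encodes BiP, the ER member of the HSP70 family and the usual first readout of unfolded protein, had 2201, 2437 and 2164 CPM in the 2-DG libraries, against 926, 918 and 924 CPM in the high-glucose libraries (log2 fold change 1.30 ± 0.07 (SE), adjusted p = 2.3e-08). All 3 2-DG libraries lay far above the high-glucose libraries, 2-DG control 2 was the highest, and the log2 fold change without it was 1.24. HSP90B1, the ER member of the HSP90 family (GRP94), had 1865, 2254 and 1881 CPM in the 2-DG libraries, against 941, 966 and 967 CPM in the high-glucose libraries (log2 fold change 1.06 ± 0.10 (SE), adjusted p = 5.6e-06). Again 2-DG control 2 was the highest and the groups were well apart. DNAJB9 (ERdj4), a co-chaperone of BiP, had 26.1, 26.1 and 26.6 CPM in the 2-DG libraries, against 12.9, 12.9 and 12.5 CPM in the high-glucose libraries (log2 fold change 1.04 ± 0.06 (SE), adjusted p = 2.8e-08), with no overlap and almost no spread within either group. MANF, a secreted ER protein that binds BiP, had 79.7, 112 and 83.0 CPM in the 2-DG libraries, against 37.0, 37.8 and 37.2 CPM in the high-glucose libraries (log2 fold change 1.29 ± 0.14 (SE), adjusted p = 1.8e-05). CRELD2, an ER disulfide isomerase-like protein, had 88.7, 122 and 92.1 CPM in the 2-DG libraries, against 46.5, 45.9 and 47.5 CPM in the high-glucose libraries (log2 fold change 1.11 ± 0.15 (SE), adjusted p = 8.6e-05). In MANF and CRELD2 the library 2-DG control 2 was well above its mates, and the log2 fold changes without it were 1.12 and 0.95. SDF2L1, part of the BiP complex, had 42.5, 58.4 and 41.3 CPM in the 2-DG libraries, against 23.7, 22.6 and 25.1 CPM in the high-glucose libraries (log2 fold change 0.99 ± 0.18 (SE), adjusted p = 0.0014), likewise highest in 2-DG control 2 and without overlap. The co-chaperones DNAJC10 and DNAJB11 rose by log2 0.80 and 0.79, the nucleotide exchange factor HYOU1 by 0.95, the proline isomerase PPIB by 0.98, and the lectin chaperones CALR and CANX by 0.77 and 0.74. The 5 members that did not pass the test were CRELD1, FKBP2, SDF2, DNAJC1 and FKBP7, with log2 fold changes of -0.38, 0.10, 0.18, 0.25 and 0.34.

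Promoters of these genes and of a few others of the ER stress response are shown because they hold the same DNA element or its variant. The sequences run from 250 bases before to 50 after the annotated start (RefSeq, GRCh38.p14, gene strand, 5′ to 3′), with matches in capitals. The ER stress response element (ERSE) was searched as CCAAT and CCACG with 9 bases between, and its variant ERSE-II as ATTGG and CCACG with 1 base between, each on both strands. ERSE was found in 6 of the 20 ER chaperone genes with a promoter in the table (30.0%), against 0.0806% of all 27305 promoters, and ERSE-II in 10.0%, against 0.0549%. HSPA5, CRELD2 and XBP1 hold 1 ERSE each, HSP90B1 holds 2 on opposite strands, and HERPUD1 and SDF2L1 hold ERSE-II. Among the promoters of the genes tested the shares were 0.116% and 0.0914%.
HSPA5 promoter (chr9:125241294-125241593, minus strand): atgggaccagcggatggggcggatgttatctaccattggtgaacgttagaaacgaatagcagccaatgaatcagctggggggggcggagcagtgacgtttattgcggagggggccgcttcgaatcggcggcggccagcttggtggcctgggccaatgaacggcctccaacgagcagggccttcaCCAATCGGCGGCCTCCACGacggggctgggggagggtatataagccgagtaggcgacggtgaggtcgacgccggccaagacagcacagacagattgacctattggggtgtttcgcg
HSP90B1 promoter (chr12:103930160-103930459, plus strand): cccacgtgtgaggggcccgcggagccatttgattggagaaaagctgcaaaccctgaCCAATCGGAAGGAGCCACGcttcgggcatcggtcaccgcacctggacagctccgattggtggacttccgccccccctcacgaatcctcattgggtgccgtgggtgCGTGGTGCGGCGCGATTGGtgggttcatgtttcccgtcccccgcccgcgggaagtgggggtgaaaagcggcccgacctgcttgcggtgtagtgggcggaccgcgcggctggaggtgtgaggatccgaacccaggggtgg
CRELD2 promoter (chr22:49918384-49918683, plus strand): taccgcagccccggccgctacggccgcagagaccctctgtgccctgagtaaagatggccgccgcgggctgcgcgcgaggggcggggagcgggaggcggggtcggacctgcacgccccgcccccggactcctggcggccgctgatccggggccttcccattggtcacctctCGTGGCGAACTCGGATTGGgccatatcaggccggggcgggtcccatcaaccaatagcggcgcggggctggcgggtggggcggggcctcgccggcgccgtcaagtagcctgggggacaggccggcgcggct
XBP1 promoter (chr22:28800520-28800819, minus strand): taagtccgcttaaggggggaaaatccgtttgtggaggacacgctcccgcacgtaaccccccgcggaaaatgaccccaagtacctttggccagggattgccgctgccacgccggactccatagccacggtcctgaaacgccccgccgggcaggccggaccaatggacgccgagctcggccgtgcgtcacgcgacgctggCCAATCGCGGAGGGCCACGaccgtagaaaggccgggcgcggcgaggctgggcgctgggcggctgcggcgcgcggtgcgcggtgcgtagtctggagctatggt
HERPUD1 promoter (chr16:56931892-56932191, plus strand): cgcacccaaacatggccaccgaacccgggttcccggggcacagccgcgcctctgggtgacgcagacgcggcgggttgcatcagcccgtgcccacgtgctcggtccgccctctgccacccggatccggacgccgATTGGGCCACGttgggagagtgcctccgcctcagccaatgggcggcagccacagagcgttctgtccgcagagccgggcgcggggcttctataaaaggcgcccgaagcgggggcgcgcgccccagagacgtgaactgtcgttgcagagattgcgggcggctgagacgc
SDF2L1 promoter (chr22:21642052-21642351, plus strand): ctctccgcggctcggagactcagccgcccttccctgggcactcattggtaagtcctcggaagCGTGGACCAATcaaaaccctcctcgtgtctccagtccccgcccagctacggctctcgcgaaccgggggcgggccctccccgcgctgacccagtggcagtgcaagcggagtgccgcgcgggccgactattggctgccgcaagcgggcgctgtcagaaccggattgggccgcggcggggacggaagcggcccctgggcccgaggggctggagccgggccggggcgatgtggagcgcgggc
Counted from the start site, the first base of the match lies at -66 in HSPA5, -194 and -89 in HSP90B1, -80 in CRELD2, -52 in XBP1, -117 in HERPUD1 and -188 in SDF2L1. A match is a string in the sequence, and binding there was not measured. DNAJB9, MANF, PDIA4, SEC61A1 and AGR2, which rose as well, have no ERSE or ERSE-II in this window.

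**Figure D2:**
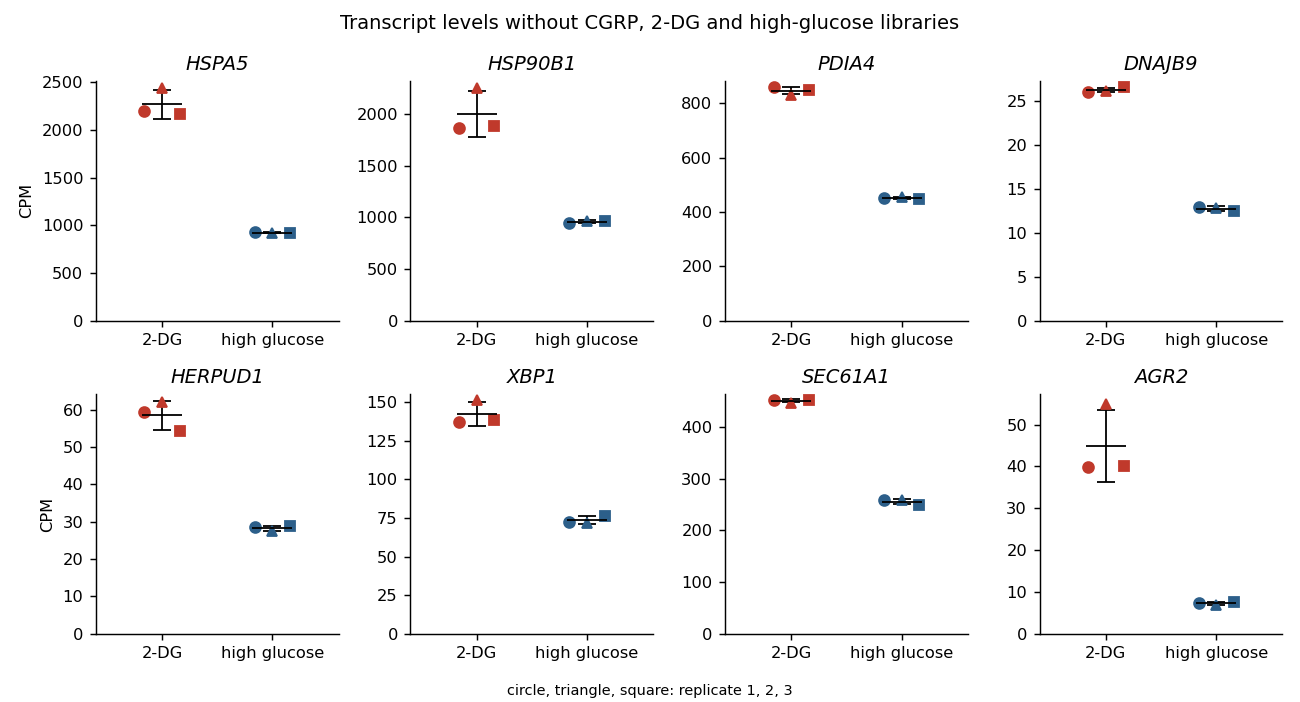
CPM (y axis from 0, 1 scale per gene) of 8 genes of the ER in the 3 2-DG libraries (red, left) and the 3 high-glucose libraries (blue, right), with the mean as a long bar and the SD as whiskers (n = 3). In each of the 8 genes the lowest 2-DG library lies above the highest high-glucose library, and the triangle, 2-DG control 2, is the highest for HSPA5, HSP90B1, HERPUD1, XBP1 and AGR2.

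Genes of the machinery that brings proteins into the ER and on to the Golgi also rose. Of 34 genes of the translocon, signal peptidase, COPII coat and cargo receptors, 27 rose and 0 fell (median log2 fold change 0.49; 25 rose without 2-DG control 2). SEC61A1, the pore of the translocon, had 452, 447 and 452 CPM in the 2-DG libraries, against 258, 259 and 250 CPM in the high-glucose libraries (log2 fold change 0.82 ± 0.04 (SE), adjusted p = 6.7e-09). Its libraries were nearly level within each group and far apart between them. SSR1 and SSR3, subunits of the translocon-associated complex, rose by log2 0.77 and 0.74. TMED2, a cargo receptor of early transport vesicles, had 511, 530 and 510 CPM in the 2-DG libraries, against 338, 336 and 334 CPM in the high-glucose libraries, again without overlap. KDELR3, a receptor that returns escaped chaperones to the ER, had 18.6, 21.4 and 18.4 CPM in the 2-DG libraries, against 8.65, 8.35 and 8.85 CPM in the high-glucose libraries (log2 fold change 1.18 ± 0.09 (SE), adjusted p = 3.3e-07) and was the member with the largest change. Its relatives KDELR2 and KDELR1 rose by 0.58 and 0.36. All 34 members had a positive log2 fold change, and the 7 that did not pass ranged from 0.07 for SRP54 to 0.55 for SEC61G. The core of the XBP1 element (TGACGTG, both strands) stood in 6 of the 30 promoters available for this list. It stood in 2.0% of all promoters and 2.48% of those of the genes tested. Lists without a rise differed in this share. It was 10.5% for glycolytic enzymes, 9.09% for the TCA cycle and 8.82% for ribosomal proteins. For the G2/M, pentose phosphate, fatty acid oxidation and glucose transporter lists it was 0.0%.

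Of the disulfide-forming enzymes, which place the cross-links in secreted proteins, 9 of 14 rose and 0 fell (median 0.49). PDIA4 had 861, 832 and 847 CPM in the 2-DG libraries, against 450, 454 and 448 CPM in the high-glucose libraries (log2 fold change 0.91 ± 0.04 (SE), adjusted p = 6.1e-09), the smallest adjusted p of the list. PDIA3, P4HB and PDIA5 rose by log2 0.73, 0.67 and 0.61. ERO1B, an oxidase that recharges these enzymes, rose by 0.54, while its relative ERO1A had 0.09 (adjusted p = 0.28) and did not pass the test.

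Genes of N-glycosylation, the pathway that 2-DG enters as a mannose mimic, rose in 22 of 38 cases with 0 falls (median 0.30; 19 rises without 2-DG control 2). STT3A and STT3B, the catalytic subunits of the oligosaccharyltransferase, both rose. STT3A, which works alongside the translocon, had 210, 219 and 204 CPM in the 2-DG libraries, against 129, 131 and 128 CPM in the high-glucose libraries (log2 fold change 0.70 ± 0.05 (SE), adjusted p = 1.6e-07), and STT3B, which glycosylates sites that STT3A skipped, had 193, 170 and 190 CPM in the 2-DG libraries, against 135, 135 and 137 CPM in the high-glucose libraries (log2 fold change 0.44 ± 0.05 (SE), adjusted p = 1.9e-05). MAGT1, an oxidoreductase of the STT3B complex, rose by log2 0.56 and RPN1 by 0.61, while the MAGT1 relative TUSC3 had -0.32 (adjusted p = 0.057). Among the enzymes that build the lipid-linked sugar chain, DPAGT1, which starts it, rose by 0.41, and ALG5, ALG1 and ALG3 by 0.65, 0.50 and 0.42.

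Among the enzymes that make the sugar donors 12 of 19 rose and 1 fell (median 0.36). GFPT1, the rate-limiting enzyme of the hexosamine pathway, had 165, 133 and 163 CPM in the 2-DG libraries, against 101, 99.6 and 99.5 CPM in the high-glucose libraries (log2 fold change 0.62 ± 0.08 (SE), adjusted p = 5.5e-05), with 2-DG control 2 the lowest of its group and still above every high-glucose library. PGM3 and UAP1, further steps of that pathway, rose by log2 0.45 and 0.40. On the mannose side PMM2 had 32.0, 28.8 and 33.2 CPM in the 2-DG libraries, against 22.3, 23.1 and 23.1 CPM in the high-glucose libraries (log2 fold change 0.46 ± 0.09 (SE), adjusted p = 0.0018), and the GDP-mannose subunits GMPPA and GMPPB rose by 0.68 and 0.48. MPI, which links mannose 6-phosphate to glycolysis, had -0.02 (adjusted p = 0.89) and did not pass the test. The 1 member that fell was OGA, which removes O-linked N-acetylglucosamine from cell proteins, at -0.54 (adjusted p = 0.00031), while OGT, which adds it, had -0.09 (adjusted p = 0.76).

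ER-associated degradation, which exports misfolded proteins to the proteasome, was also measured: 10 of 22 members rose and 0 fell (median 0.21). There were 7 rises without 2-DG control 3 or high-glucose control 1 or 2. With total-count scaling 7 rose and 2 fell, and without both libraries that stand apart 14 rose and 3 fell. HERPUD1, a membrane scaffold of this pathway, had 59.4, 61.9 and 54.3 CPM in the 2-DG libraries, against 28.6, 27.6 and 28.8 CPM in the high-glucose libraries (log2 fold change 1.05 ± 0.06 (SE), adjusted p = 1.6e-08). The ubiquitin ligase SYVN1 and its partner SEL1L rose by log2 0.47 and 0.47, and the lectin ERLEC1 by 0.48. The cytosolic extraction factors VCP, UFD1 and NPLOC4 had -0.12, -0.01 and -0.09 and did not pass the test, and the mannosidases EDEM1 and EDEM3 had 0.34 (adjusted p = 0.066) and 0.29 (adjusted p = 0.34).

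Among the sensors and transcription factors of ER stress 2 of 11 rose and 0 fell. XBP1, the factor that IRE1 activates by splicing, had 137, 151 and 138 CPM in the 2-DG libraries, against 72.3, 71.9 and 76.6 CPM in the high-glucose libraries (log2 fold change 0.95 ± 0.07 (SE), adjusted p = 1.6e-07), and CREB3 rose by log2 0.44. The sensors themselves had 0.34 (adjusted p = 0.063) for EIF2AK3, 0.09 (adjusted p = 0.42) for ATF6 and -0.04 (adjusted p = 0.91) for ERN1. The gene table holds 1 count per gene, so spliced XBP1 was not measured.

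**Figure D3:**
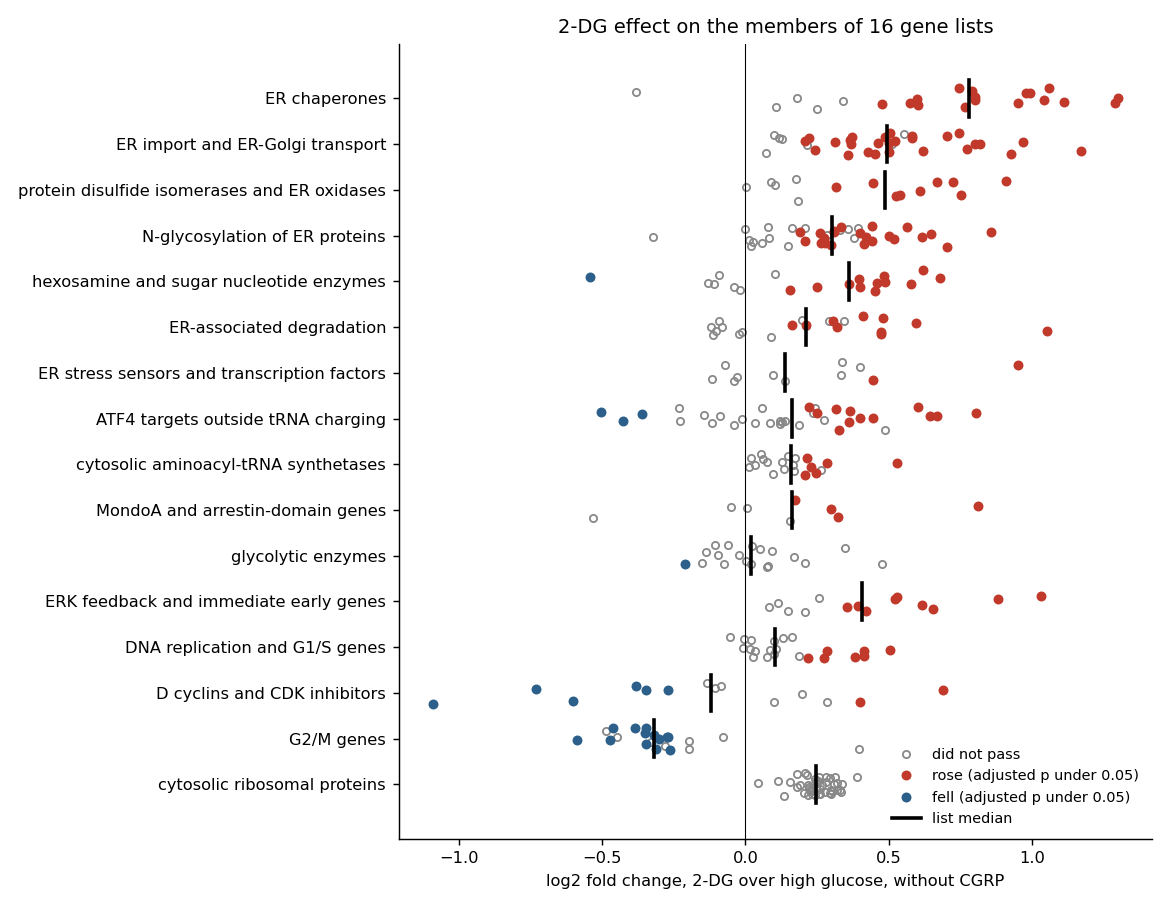
Log2 fold change of 2-DG over high glucose without CGRP (x axis) for each tested member of 16 gene lists (rows), red for genes that rose, blue for genes that fell and open circles for genes that did not pass the test (edgeR, adjusted p under 0.05), with the list median as a black bar. The ER chaperone median lies at 0.78, the G2/M median at -0.32, and the ribosomal proteins lie together at 0.25 with no member past the test.

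Targets of ATF4, the factor of the PERK branch, moved in both directions. ATF4 drives amino acid synthesis and transport when translation initiation is slowed. Of 34 target genes 12 rose and 3 fell (median 0.16). TRIB3, a pseudokinase induced through ATF4 and CHOP, had 55.8, 65.3 and 56.5 CPM in the 2-DG libraries, against 37.1, 38.5 and 37.9 CPM in the high-glucose libraries (log2 fold change 0.65 ± 0.08 (SE), adjusted p = 5e-05). PYCR1 and ALDH18A1, enzymes of proline synthesis, rose by log2 0.67 and 0.37, the secreted glycoprotein STC2 by 0.60, and the serine synthesis enzymes PHGDH and PSAT1 by 0.33 and 0.32. The 3 that fell were ATF3, DDIT4 and CTH. ATF3, a stress-induced transcription factor, had 18.6, 20.8 and 18.8 CPM in the 2-DG libraries, against 24.5, 25.7 and 24.5 CPM in the high-glucose libraries (log2 fold change -0.36 ± 0.06 (SE), adjusted p = 0.00034). DDIT4, an inhibitor of mTORC1, had 773, 850 and 765 CPM in the 2-DG libraries, against 1089, 1076 and 1046 CPM in the high-glucose libraries (log2 fold change -0.43 ± 0.07 (SE), adjusted p = 0.001), and CTH, the last enzyme of transsulfuration, had -0.50 (adjusted p = 0.0048). DDIT3, which encodes CHOP, the factor tied to death under prolonged ER stress, had 11.2, 17.6 and 12.2 CPM in the 2-DG libraries, against 10.2, 9.81 and 11.0 CPM in the high-glucose libraries (log2 fold change 0.40 ± 0.22 (SE), adjusted p = 0.27), with only 2-DG control 2 clearly above the rest and a log2 fold change of 0.17 without it. ATF4 itself had 0.14 (adjusted p = 0.4), and the targets CHAC1 and ASNS had -0.23 (adjusted p = 0.26) and -0.23 (adjusted p = 0.64). GDF15, a stress-induced secreted factor, had 0.13 (adjusted p = 0.21). Of 20 cytosolic tRNA synthetases 6 rose and 0 fell (3 rises without high-glucose control 3 and 4 without 2-DG control 2). With the offset for transcript length 11 rose, and 2 when only the compared groups were fitted. WARS1, for tryptophan, led with 112, 117 and 114 CPM in the 2-DG libraries, against 80.3, 78.9 and 78.2 CPM in the high-glucose libraries (log2 fold change 0.53 ± 0.04 (SE), adjusted p = 5.1e-07).

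Both classical targets of MondoA rose. ARRDC4, an arrestin-domain protein that limits glucose uptake, had 68.0, 63.4 and 66.9 CPM in the 2-DG libraries, against 37.3, 37.5 and 38.2 CPM in the high-glucose libraries (log2 fold change 0.81 ± 0.06 (SE), adjusted p = 4e-07). TXNIP (ENSG00000265972), its relative that binds thioredoxin and promotes removal of glucose transporters from the membrane, had 735, 663 and 716 CPM in the 2-DG libraries, against 585, 542 and 595 CPM in the high-glucose libraries (log2 fold change 0.30 ± 0.06 (SE), adjusted p = 0.003). Neither gene overlapped between groups. ARRDC3 and MLX passed at 0.32 (adjusted p = 0.009) and 0.17 (adjusted p = 0.046), MLX in 5 of 16 alternatives only, and MLXIP, which encodes MondoA, had 0.00 (adjusted p = 0.99). The list thus had 4 of 8 members rising and 0 falling (2 rises without high-glucose control 2).

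Of the transcripts of glycolysis few passed the test. Among 19 enzymes 0 rose and 1 fell (median 0.02). The 1 member that fell was HK1, a hexokinase that phosphorylates both glucose and 2-DG, with 229, 232 and 223 CPM in the 2-DG libraries, against 265, 264 and 262 CPM in the high-glucose libraries (log2 fold change -0.21 ± 0.05 (SE), adjusted p = 0.011); without 2-DG control 3 it did not pass the threshold and 0 members were called, whereas without 2-DG control 2 there were 3 falls. HK2, the inducible hexokinase, had 146, 120 and 140 CPM in the 2-DG libraries, against 151, 143 and 141 CPM in the high-glucose libraries (log2 fold change -0.10 ± 0.15 (SE), adjusted p = 0.74), with groups that overlap. GPI, whose enzyme 2-DG 6-phosphate inhibits, had 0.09 (adjusted p = 0.42). The main transporter SLC2A1 (GLUT1) had 353, 341 and 333 CPM in the 2-DG libraries, against 332, 307 and 318 CPM in the high-glucose libraries (log2 fold change 0.10 ± 0.08 (SE), adjusted p = 0.43). The lowest 2-DG library lay just above the highest high-glucose library, and the difference did not pass the test. SLC2A3 (GLUT3) had too few counts to be tested, 14 summed over the 2-DG libraries, against 7 over the high-glucose libraries. Of 6 transporters tested 2 fell and 0 rose. SLC2A12 (GLUT12) had 20.01, 13.8 and 19.8 CPM in the 2-DG libraries, against 29.9, 31.6 and 31.3 CPM in the high-glucose libraries (log2 fold change -0.79 ± 0.10 (SE), adjusted p = 8.2e-05), and SLC2A4 (GLUT4), near the lower end of detection, had 1.04, 0.856 and 0.692 CPM in the 2-DG libraries, against 1.64, 1.46 and 2.09 CPM in the high-glucose libraries (log2 fold change -0.99 ± 0.20 (SE), adjusted p = 0.0029). Among regulators, PDK2, which restrains pyruvate dehydrogenase, fell by 0.40 on the log2 scale, and the opposing phosphatase PDP1 by 0.25 (adjusted p = 0.017, and 0.058 without 2-DG control 2, with 1 fall then left in the list, as without high-glucose control 2 or 3), and the lactate transporter SLC16A1 rose by 0.23. PFKFB3 and PFKFB4, which set the level of a glycolysis activator, had 0.12 (adjusted p = 0.54) and 0.21 (adjusted p = 0.18). No pentose phosphate enzyme passed the test (0 of 8; range -0.09 to 0.37), and of 25 TCA cycle genes ACO1 fell, at -0.18 (adjusted p = 0.018), a call lost without high-glucose control 1 or 2 and with the length offset (adjusted p = 0.093).

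Genes that ERK signalling induces, many of them its own inhibitors, rose in 9 of 14 cases with 0 falls (median 0.41). DUSP6, the ERK phosphatase, had 51.6, 47.9 and 51.3 CPM in the 2-DG libraries, against 22.5, 26.4 and 24.8 CPM in the high-glucose libraries (log2 fold change 1.03 ± 0.08 (SE), adjusted p = 5.9e-07), with the 2-DG libraries close together and far above the high-glucose libraries. SPRY4 and SPRY1, which block receptor signals upstream of ERK, rose by log2 0.88 and 0.61, and the transcription factor ETV5 by 0.52. MYC had 156, 157 and 152 CPM in the 2-DG libraries, against 100, 97.7 and 97.9 CPM in the high-glucose libraries (log2 fold change 0.65 ± 0.05 (SE), adjusted p = 5.9e-07). FOSL1, an AP-1 subunit stabilised by ERK, had 93.8, 111 and 92.2 CPM in the 2-DG libraries, against 54.1, 55.6 and 51.9 CPM in the high-glucose libraries (log2 fold change 0.88 ± 0.09 (SE), adjusted p = 9e-06); JUN and MAFF rose by 0.38 and 0.25, and of the 11 AP-1 genes ATF3 was the 1 that fell. Of 10 EGF receptor family and ligand genes 2 rose, HBEGF by 0.56 and NRG1 by 0.19, and 2 fell, while EGFR itself had 0.01 (adjusted p = 0.99). NRG1 passed in 5 of 16 alternatives, and the list had 1 rise without 2-DG control 1 or any 1 high-glucose library. The falls, EGF (-0.60) and ERBB3 (-0.26), were lost when any 1 library other than 2-DG control 1 was left out.

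Genes of late cell cycle phases fell, and a few of replication rose. Of 21 G2 and mitosis genes 0 rose and 13 fell, with a median of -0.32. Falls numbered 14 without 2-DG control 2 and 9 without high-glucose control 2. They numbered 10 without 2-DG control 1 or 3 or high-glucose control 3. KIF20A, a kinesin of cytokinesis, had 94.2, 94.0 and 96.8 CPM in the 2-DG libraries, against 141, 146 and 142 CPM in the high-glucose libraries (log2 fold change -0.59 ± 0.05 (SE), adjusted p = 1.7e-06). TPX2, a spindle assembly factor, had 254, 246 and 255 CPM in the 2-DG libraries, against 325, 335 and 326 CPM in the high-glucose libraries, and cyclin A2 (CCNA2) had 74.5, 76.5 and 73.5 CPM in the 2-DG libraries, against 92.1, 96.4 and 91.6 CPM in the high-glucose libraries; neither overlapped between groups. BUB1, a spindle checkpoint kinase, fell by 0.46 on the log2 scale. MKI67 had 500, 322 and 471 CPM in the 2-DG libraries, against 579, 617 and 568 CPM in the high-glucose libraries (log2 fold change -0.45 ± 0.23 (SE), adjusted p = 0.22) and did not pass the test, 2-DG control 2 lying far below its mates. With the offset for transcript length MKI67 passed (log2 fold change -0.44, adjusted p = 0.0038), as it did without both libraries that stand apart (-0.28, adjusted p = 0.029) and in the fit of the compared groups without 2-DG control 2. Of 22 replication and G1/S genes 7 rose and 0 fell, among them cyclin E2 (CCNE2, 0.51), CDC6 (0.41) and MCM3 (0.27). That count was 3 without 2-DG control 2, 3 without high-glucose control 1 or 2, and 4 without high-glucose control 3. Cyclin D1 (CCND1) had 379, 360 and 359 CPM in the 2-DG libraries, against 230, 231 and 221 CPM in the high-glucose libraries (log2 fold change 0.69 ± 0.06 (SE), adjusted p = 4.2e-06). Of the inhibitors of cyclin-dependent kinases 5 fell: CDKN1C (-1.08), CDKN2D (-0.73), CDKN2B (-0.38), CDKN1A (-0.35) and CDKN1B (-0.27), together with cyclin G2 (CCNG2, -0.60), gave 6 falls among 14 genes with 2 rises, CCND1 and CCND2.

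The 12 largest rises held 4 of the ER genes above (HSPA5, MANF, CRELD2 and KDELR3). These rises were taken among genes with a mean log2 CPM of at least 1 over all 18 libraries and no overlap between groups. The largest was AGR2 (ENSG00000106541), an ER disulfide isomerase of mucus-producing epithelia, with 39.8, 54.9 and 40.0 CPM in the 2-DG libraries, against 7.31, 6.89 and 7.67 CPM in the high-glucose libraries (log2 fold change 2.62 ± 0.17 (SE), adjusted p = 9e-08). The groups were far apart, and without 2-DG control 2 the log2 fold change was 2.45. BHLHA15 (MIST1), a transcription factor of secretory cells, had 1.32, 0.89 and 1.05 CPM in the 2-DG libraries, against 0.267, 0.476 and 0.337 CPM in the high-glucose libraries (log2 fold change 1.59 ± 0.32 (SE), adjusted p = 0.0029), a large ratio at a low level. CSF2, which encodes the cytokine GM-CSF, had 53.5, 65.9 and 51.2 CPM in the 2-DG libraries, against 24.3, 23.8 and 23.5 CPM in the high-glucose libraries (log2 fold change 1.25 ± 0.10 (SE), adjusted p = 4.8e-07). The others were the amino acid transporter SLC38A5 (1.18), the immune receptor SLAMF7 (1.23), the morphogen SHH (1.15), TMEM45A (1.10) and the phospholipase PLCH2 (1.10). BHLHA15 and SHH averaged 1.09 and 1.58 CPM with 2-DG, against 8.56 and 5.73 CPM in deprived control cells, which enter the mean over all libraries. CSF3 and LIF were the other members that rose among 22 NF-kB inflammatory genes (1.17 and 0.51), and 0 fell, while IL1A had -0.07 (adjusted p = 0.3).

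Most of the 12 largest falls were in genes at low levels. PADI3, a peptidylarginine deiminase of hair and skin, was the best measured, with 58.3, 60.4 and 60.9 CPM in the 2-DG libraries, against 116, 114 and 118 CPM in the high-glucose libraries (log2 fold change -0.95 ± 0.07 (SE), adjusted p = 2.2e-07). EDN2, an endothelin peptide, had 3.94, 3.59 and 3.89 CPM in the 2-DG libraries, against 9.71, 9.15 and 8.92 CPM in the high-glucose libraries (log2 fold change -1.28 ± 0.29 (SE), adjusted p = 0.0075). TJP3, a tight junction scaffold, had 4.37, 3.42 and 5.01 CPM in the 2-DG libraries, against 10.9, 8.00 and 11.6 CPM in the high-glucose libraries (log2 fold change -1.25 ± 0.17 (SE), adjusted p = 0.00014), and PIGR, which carries antibodies across epithelia, had 6.86, 4.14 and 6.86 CPM in the 2-DG libraries, against 12.3, 10.0 and 12.7 CPM in the high-glucose libraries (log2 fold change -0.97 ± 0.15 (SE), adjusted p = 0.0004). No overlap between groups was part of the rule that chose these genes. TJP3 and PIGR were lowest in 2-DG control 2, and without it their log2 fold changes were -1.13 and -0.77. The others were SH2D3C (-1.14), the kinase inhibitor CDKN1C (-1.08), RND1 (-1.02), NATD1 (-0.97), YPEL2 (-0.93), the carboxypeptidase M gene (-0.93), and the non-coding transcripts KCTD13-DT (-1.15) and HCG27 (-0.93). Whether the counting used strand is not given, so reads of such transcripts and of neighbours on the other strand cannot be told apart.

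Other stress and signalling lists changed in few members. Cytosolic and mitochondrial heat shock proteins went both ways, with 4 rises and 2 falls of 16 (2 rises when any 1 high-glucose library was left out; 3 rises and 4 falls with total-count scaling). HSPA8, the constitutive HSP70, had 1545, 1847 and 1578 CPM in the 2-DG libraries, against 1141, 1186 and 1153 CPM in the high-glucose libraries (log2 fold change 0.51 ± 0.07 (SE), adjusted p = 0.00011), whereas HSP90AA1, the stress-inducible cytosolic HSP90, had 1751, 1887 and 1759 CPM in the 2-DG libraries, against 2548, 2665 and 2603 CPM in the high-glucose libraries (log2 fold change -0.53 ± 0.06 (SE), adjusted p = 1.5e-05). HSPB1 fell by 0.56 on the log2 scale. Of 33 autophagy genes 2 rose and 4 fell. The kinase ULK1, which starts autophagy, had 46.8, 43.8 and 44.1 CPM in the 2-DG libraries, against 64.1, 58.7 and 61.7 CPM in the high-glucose libraries (log2 fold change -0.45 ± 0.05 (SE), adjusted p = 1.5e-05), GABARAPL1 fell by 0.50, and the receptor SQSTM1 (p62) had 789, 903 and 797 CPM in the 2-DG libraries, against 620, 615 and 632 CPM in the high-glucose libraries (log2 fold change 0.41 ± 0.07 (SE), adjusted p = 0.00062). Of 18 hypoxia-responsive genes 4 rose: VEGFA with 441, 364 and 436 CPM in the 2-DG libraries, against 283, 272 and 276 CPM in the high-glucose libraries (log2 fold change 0.58 ± 0.10 (SE), adjusted p = 0.00067), the collagen prolyl hydroxylases P4HA1 and P4HA2 (0.47 and 0.52) and LOX (0.43), while CA9 had 0.14 (adjusted p = 0.4). BNIP3L fell (-0.15) and did not pass when any 1 of the 6 libraries was left out. Interferon-stimulated genes gave 4 rises of 24, OASL, IFIT2, IFIT3 and RIGI (0.54, 0.45, 0.41 and 0.28), and 1 fall, IRF7 (-0.41), which was lost without 2-DG control 1 or 3 or high-glucose control 2 or 3.

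Lipid, redox, growth-control and surface lists had few calls, and many of these counts changed when 1 library was left out. Cholesterol synthesis had 1 rise, SQLE (0.28), and 3 falls of 25 (1 fall without high-glucose control 3 or 2-DG control 3), with HMGCS1 at 202, 202 and 203 CPM in the 2-DG libraries, against 238, 262 and 238 CPM in the high-glucose libraries (log2 fold change -0.28 ± 0.06 (SE), adjusted p = 0.0076). SREBF1, the factor that drives fatty acid synthesis, fell by 0.31 on the log2 scale, in a list with 3 rises (1 without 2-DG control 2) and 2 falls of 14. Fatty acid oxidation had 0 rises and 2 falls of 19, ETFDH (-0.32) and CPT2 (-0.16), the call of CPT2 being lost without 2-DG control 3 or any 1 high-glucose library. Of 22 NRF2 targets ABCC3 rose (0.42; lost without 2-DG control 1 or high-glucose control 3, and 3 rises without 2-DG control 2) and GSR fell (-0.28), and HMOX1 had -0.06 (adjusted p = 0.76). The AMPK and mTORC1 list had 1 rise (0 when any 1 library other than 2-DG control 1 was left out) and 2 falls of 31, DDIT4 and the arginine sensor CASTOR2 (-0.62); the lysosome list 3 rises and 0 falls of 25; and the p53 and cell death list 4 rises and 2 falls of 20 (2 and 4 with total-count scaling; 2 rises without 2-DG control 1 or high-glucose control 1), with the pro-death gene BMF at -0.86, the survival gene BCL2 at 0.57 and the death receptor FAS at 0.35. Of 18 basal keratin and adhesion genes, the laminin chain LAMB3 had 1544, 1555 and 1474 CPM in the 2-DG libraries, against 849, 821 and 856 CPM in the high-glucose libraries (log2 fold change 0.86 ± 0.05 (SE), adjusted p = 4.8e-08), ITGA3 rose (0.32; lost without 2-DG control 1 or 3 or high-glucose control 1 or 2) and TP63 had 408, 334 and 390 CPM in the 2-DG libraries, against 550, 565 and 548 CPM in the high-glucose libraries (log2 fold change -0.56 ± 0.09 (SE), adjusted p = 0.00074), lower in every 2-DG library. TP63 was the 1 fall of that list, which had 3 falls without 2-DG control 2. The matrix and EMT list had 6 rises of 20, the proteases MMP1 and MMP10 among them (0.63 and 0.79). There were 4 rises without 2-DG control 2 or high-glucose control 1 or 2, and MMP10 did not pass when only the compared groups were fitted. The list had 1 fall, TWIST1 (-0.49), lost without 2-DG control 1 or 3 or high-glucose control 1 or 3. Of 9 differentiation genes tested SPRR1B rose (0.66), a call lost without 2-DG control 2 or high-glucose control 1 or 3. Zinc genes had 3 rises of 8, MT1E with 179, 238 and 180 CPM in the 2-DG libraries, against 107, 102 and 106 CPM in the high-glucose libraries (log2 fold change 0.92 ± 0.15 (SE), adjusted p = 0.00066), a member of a family of close copies whose reads can be split; SLC30A1, a zinc exporter without close copies, rose by 0.54. Of 5 CGRP receptor and ligand genes tested CRCP passed (0.19), not without 2-DG control 2 or any 1 high-glucose library, and the receptor genes CALCRL and RAMP1 had -0.28 (adjusted p = 0.37) and 0.32 (adjusted p = 0.26). Mitochondrially encoded subunits had 2 rises of 13 and 0 when any 1 library other than 2-DG control 1 was left out (1 without that one).

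For the 45 cytosolic ribosomal protein genes the list median moved with 1 library. All 45 had a positive log2 fold change with a median of 0.25, and 0 passed the test. Without 2-DG control 2 the median was 0.04. Their transcripts are short, and their median deviation in that library from its mates was 0.493 on the log2 scale. With the offset for transcript length the median stayed at 0.22, and 6 members rose and 0 fell. The cause of the shift was not tested.

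The effect of 2-DG was also measured with 10 nM rhCGRP present, in 6 other libraries that share no sample with those above. There 276 genes rose and 158 fell (1.52% and 0.87% of the genes tested), and between 157 and 197 genes in all were called when any 1 of those libraries was left out. The order of the 2 counts depends on the fit. When only the compared groups were fitted, 2363 genes were called under CGRP and 1551 without it. Of the 2513 genes called without CGRP 336 were also called under it (13.4% of the calls without CGRP and 77.4% of the 434 calls under it), 334 of them in the same direction, and 92.1% had the same sign. The risers without CGRP had a median log2 fold change of 0.345 without CGRP and of 0.153 under it, and the fallers -0.455 and -0.175. The choice of genes bears on this, since genes called under CGRP had medians of 0.382 without it and 0.328 under it where they rose, and of -0.472 and -0.43 where they fell. Among the lists the ER chaperone median was 0.78 without and 0.31 under CGRP, that of ER import 0.49 and 0.19, and that of the G2/M genes -0.32 and -0.05. Counts of risers under CGRP were 8 of 22 ER chaperones and 9 of 34 import genes, and 0 G2/M genes fell. For the ERK feedback genes the medians were 0.41 and 0.27.

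A test of the difference itself passed in 71 genes (0.391% of the genes tested; interaction term, edgeR, adjusted p under 0.05), and 65 of them had the larger 2-DG effect without CGRP. Of the 71 genes 68 were also called without CGRP, which bears on how many had the larger effect there. The share of all genes tested with the larger effect without CGRP is not given here. The number that passed the interaction test was 50 without 2-DG control 2. It lay between 13 and 23 when any other of the 12 libraries was left out. HSPA5 had 1444, 1373 and 1362 CPM with 2-DG and 988, 1007 and 1013 CPM with high glucose under CGRP, where its log2 fold change was 0.47, so that the effect without CGRP was larger by 0.82 ± 0.10 (SE, adjusted p = 0.002). AGR2 had 23.3, 20.5 and 19.8 CPM with 2-DG and 11.4, 12.3 and 12.8 CPM with high glucose under CGRP, a difference of effects of 1.82 ± 0.23 (SE, adjusted p = 0.0023). LAMB3 differed by 0.73 ± 0.07 (SE, adjusted p = 0.00027) and did not pass under CGRP, at 0.13 (adjusted p = 0.25). These 3 differences passed in every alternative computed. WARS1 (0.51), SEC61A1 (0.49), SSR1 (0.46) and NUCB2 (0.71) were further genes whose rise was larger without CGRP, and KIF20A (-0.50) and CCNG2 (-0.56) genes whose fall was larger without it. In the ER lists the interaction was positive in 5 chaperones and 8 import genes and negative in 0 and 0. DUSP6 (0.92 under CGRP, 1.03 without), HERPUD1 (0.77 and 1.05), CSF2 (1.02 and 1.25) and TXNIP (0.28 and 0.30) rose in both, and their differences did not pass the test.

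**Figure D4:**
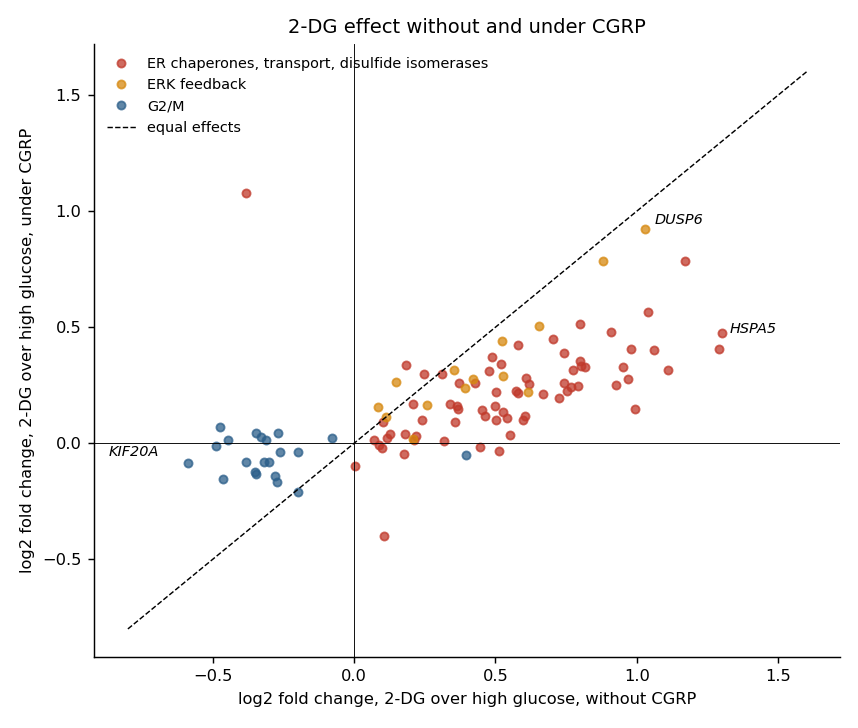
Log2 fold change of 2-DG over high glucose under CGRP (y axis) against that without CGRP (x axis) for members of the ER chaperone, ER transport and disulfide isomerase lists (red), ERK feedback genes (orange) and G2/M genes (blue), with the line of equal effects dashed. Most red points lie between the x axis and the dashed line, HSPA5 at 1.30 and 0.47 among them, while DUSP6 at 1.03 and 0.92 lies near the line. The red point at the upper left is CRELD1, a weakly measured gene at -0.38 without and 1.08 under CGRP whose difference did not pass the test (adjusted p = 0.25).

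Glucose-deprived medium without CGRP was also part of the study, and it differed from 2-DG in 10447 genes, 5256 higher and 5191 lower with 2-DG (28.9% and 28.6% of the genes tested). The values over high glucose below share the high-glucose libraries and are set side by side only. The ER chaperone median was 0.78 with 2-DG and 1.73 with deprivation, the ATF4 target median 0.16 and 1.56, the G2/M median -0.32 and -1.93, and the cholesterol synthesis median 0.05 and -1.19. HSPA5 had 2201, 2437 and 2164 CPM with 2-DG, against 20560, 20840 and 20390 CPM in deprived cells (2-DG over deprived, log2 -3.18 ± 0.08 (SE), adjusted p = 1.7e-14). DDIT3 had 11.2, 17.6 and 12.2 CPM with 2-DG, against 249, 266 and 254 CPM in deprived cells (log2 -4.23 ± 0.22 (SE), adjusted p = 1.3e-10). Both genes were far lower with 2-DG, and the MondoA targets were far higher. TXNIP had 735, 663 and 716 CPM with 2-DG, against 13.2, 13.3 and 13.7 CPM in deprived cells (log2 5.71 ± 0.07 (SE), adjusted p = 1.7e-17), and ARRDC4 had 68.0, 63.4 and 66.9 CPM, against 7.08, 7.62 and 7.99 CPM (log2 3.13 ± 0.07 (SE), adjusted p = 7.7e-15). CSF2 had 53.5, 65.9 and 51.2 CPM with 2-DG, against 14.0, 14.3 and 13.1 CPM in deprived cells (log2 2.04 ± 0.10 (SE), adjusted p = 5e-11). SLC2A1 was lower with 2-DG, at 353, 341 and 333 CPM, against 592, 549 and 553 CPM in deprived cells (log2 -0.72 ± 0.08 (SE), adjusted p = 4.8e-07). The largest differences besides TXNIP were RAB7B, METTL7A, CP and MAP2K6, barely detected in deprived cells (0.0329, 0.0345 and 0 CPM for RAB7B, against 2.40, 3.66 and 3.13 CPM with 2-DG), and CMKLR2, RAB39B, SCN9A, ERVE-1 and RPLP0P2, all under 1 CPM on average with 2-DG (0.4, 0.376 and 0.626 CPM for CMKLR2, against 29.6, 30.1 and 29.2 CPM in deprived cells).

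**Figure D5:**
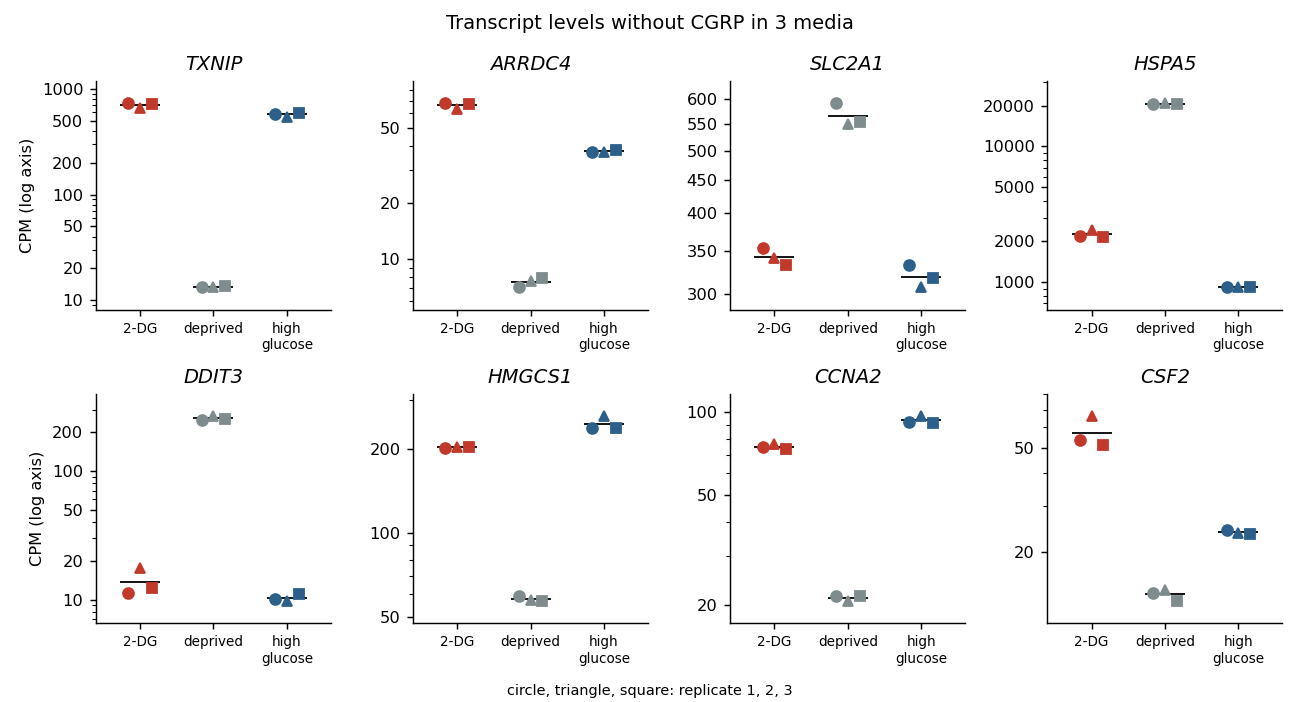
CPM (log y axis, 1 scale per gene) of 8 genes in the 2-DG (red), glucose-deprived (grey) and high-glucose libraries (blue) without CGRP, with the group mean as a bar (n = 3) and 1 symbol per replicate. TXNIP and ARRDC4 are high with 2-DG and low in deprived cells, while HSPA5 and DDIT3 are highest in deprived cells.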

How the data were processed

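RNA-seq gene counts of 18 Cal27 libraries, 3 in each of 6 groups, were used as the authors deposited them: 1 table of whole-number counts per gene for 60683 Ensembl IDs with symbols. Per the submitters' processing notes HISAT2 2.0.4 was used and the builds hg19 and GRCh38 are named; no source used here names the counter, the annotation or the use of strand. Totals were 28038260 to 32661768 counts per library.

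Groups were taken from the labels, and all 18 libraries were mapped. Genes were kept with edgeR's filterByExpr (minimum count 10, minimum total 15), which left 18159. edgeR 4.0.16 in R 4.3.3 was run with TMM scaling and a robust quasi-likelihood F test over all 6 groups (12 residual degrees of freedom, common biological coefficient of variation 9.44%), with contrasts for 2-DG against high glucose without CGRP, the same under CGRP, their difference, and 2-DG against deprived medium without CGRP. Benjamini-Hochberg adjustment ran over the 18159 genes, and a gene was called at an adjusted p under 0.05. No test over a list was made; lists are given as counts and medians. CPM values use TMM-scaled library sizes. The steps were tested on simulated data. Alternatives were RLE and total-count scaling, DESeq2 1.42.0, other filters, a replicate block, fits of the compared groups only and each library left out; an offset for transcript length was added after seeing the data. Promoters came from RefSeq tables (12037 of 18145 symbols tested matched). They were searched for motifs on both strands.

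Named genes were the 12 largest rises and falls among calls with a mean log2 CPM of at least 1 and no overlap, up to 4 members per list with the smallest adjusted p, a set of stress and glucose genes taken whatever their values, and the 5 largest differences each way for the other contrasts. The mean log2 CPM of a gene was taken over all 18 libraries. The members, gene lists and rules were chosen with earlier results of these data known. Replicates are labelled as independent repetitions of 1 line, so p-values measure the spread between cultures of that line. The summed level of the Schwann cell markers is not reported here.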

Additional observations from a re-analysis of the deposited data

Results flagged for a closer look

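The effect of 2-DG differed with CGRP by the interaction term of the edgeR fit (adjusted p under 0.05) in 71 genes. Values are log2 fold changes of 2-DG over high glucose without CGRP minus those under CGRP, for the named genes among them, with 3 libraries in each of the 4 groups.

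Most named genes with a positive difference were of the ER, and the lists of ER genes bear on which were named. AGR2, the ER disulfide isomerase, differed by 1.82 and HSPA5 (BiP) by 0.82. The BiP co-chaperones DNAJB11, DNAJB9 and DNAJC10 differed by 0.54, 0.48 and 0.47, the disulfide isomerase PDIA4 by 0.43, and the calcium-binding protein NUCB2 by 0.71. The translocon genes SEC61A1, SSR3 and SSR1 differed by 0.49, 0.49 and 0.46, the oligosaccharyltransferase subunit STT3A by 0.37 and the cargo receptor TMED2 by 0.37. Outside the ER the laminin chain LAMB3 differed by 0.73, the secreted matrix protein CTHRC1 by 0.81, the tryptophan tRNA synthetase WARS1 by 0.51 and the proline synthesis enzyme PYCR1 by 0.49.

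The named genes with a negative difference were the mitotic genes TPX2 (-0.30) and KIF20A (-0.50), cyclin G2 (CCNG2, -0.56), the kinase TEC (-0.78) and TRAV8-1 (-0.61), HCG27 (-0.85) and the pseudogene NPM1P27 (-0.98). Of the 10 genes with the largest differences AGR2, HSPA5 and LAMB3 passed in every alternative computed, whereas HCG27 and TEC lost the threshold in 14 alternatives, TRAV8-1 in 13, CTHRC1 in 11, NPM1P27 in 9, CCNG2 in 7 and NUCB2 in 4. Pseudogene and gene-segment reads can be shared with close copies.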

How the results depend on the processing

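Without CGRP 2513 genes were called, and 0 of them changed sign in any alternative. The count was 1551 when only the compared groups were fitted (58.6% of the 2513 remained), 6833 in that fit without 2-DG control 2, 5997 without both libraries that stand apart (97.5% remained) and 3839 with an offset for transcript length (93.6% remained), which was chosen after seeing the data. With 1 library left out it lay between 1593 and 2078. Under CGRP the 434 calls became 710 with DESeq2, 246 with no filter on low counts, 2363 when only the compared groups were fitted, 3598 without both libraries that stand apart and 1093 with the length offset, and lay between 157 and 197 with 1 library left out. The 71 genes whose effect differed became 228, 30, 142, 1092 and 248 under the same alternatives, and 13 to 50 with 1 library left out. The cause of these moves was not tested. The 10447 differences from deprived medium stayed within 1.5 times in every alternative. With total-count scaling 38.1% of the calls without CGRP were rises, against 57.7%, 51.1% under CGRP, against 63.6%, and 55.6% of the differences were positive, against 69.0%; the median of all genes without CGRP moved to -0.05. Reversed values were those of GPI (-0.001 with the compared groups and 1 library fewer) and NPM1P27 (-0.032 in that fit, -0.025 without both libraries that stand apart and -0.027 to 0.203 with 1 library left out), neither of which was called. Of 168 named genes with alternatives 29 lost the threshold in at least 1 of them.

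The replicate numbers did not pair the libraries: the deviations of same-numbered libraries correlated at 0.00362, -0.035 and -0.0244. With the replicate number as a block 2573 genes were called without CGRP, 404 under CGRP, 68 for the difference and 10554 against deprived medium. Genes at low levels have wide errors, as the SE of 0.32 for BHLHA15 shows.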
